A study of Mus musculus with 18 samples.

Results

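The first step in gel density of the study compares dendritic cells (DCs) that migrated in collagen of 2.6 mg/ml with DCs that migrated in collagen of 1.7 mg/ml. Its members were the 3 libraries titled 2.6 mg/ml and the 3 libraries titled 1.7 mg/ml, 6 of the 18 libraries in all, compared within the biological replicate number. Both groups were wild-type C57Bl6/J DCs grown with GM-CSF from bone marrow of mice aged 8 to 12 weeks, which the study's methods give as male. All were matured with 200 ng/ml LPS for 24 hours, embedded in bovine collagen, and exposed to a gradient of CCL19, so that the labels separate them by collagen concentration alone. RNA was taken 5 hours after the gradient was set up. The 12 other libraries helped to estimate the spread: DCs in 3.5 or 4.4 mg/ml collagen toward CCL19, and 2 groups of DCs in suspension without collagen, titled with and without CCL19. Titles and library names contradict each other on which suspension group had CCL19, and suspension values below pool both groups. The gel was lysed whole, so the RNA comes from every cell in it, and in such bulk RNA fewer cells of a type and less RNA per cell cannot be told apart. The labels do not say whether replicates came from separate animals, and the sex-linked counts below set only replicate 3 apart. The p-values thus measure the spread between these samples, which may in part be technical.

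DCs sample antigen in tissues, mature on contact with bacterial products such as LPS, and then follow CCL19 through the receptor CCR7 toward lymph nodes. On the way they pass through fibrillar collagen, whose pores narrow as its concentration rises, so that the nucleus and other bulky organelles must deform. Cells under mechanical load or crowding are known to use stretch-gated channels, actomyosin contraction, early response transcription factors, and chaperones. DYRK3, a dual-specificity kinase that dissolves membraneless condensates, is the gene that the study followed up, and its transcript was 1 of those examined here.

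Total counts ran from 13178096 (replicate 2 at 2.6 mg/ml) to 28059839 (replicate 3 at 2.6 mg/ml), and no 2 of the 6 libraries held identical counts. DC markers were present throughout: summed over the list, they came to 32490, 39920, and 49140 CPM (counts scaled to library size, here with TMM factors) at 1.7 mg/ml and to 24070, 31930, and 40150 CPM at 2.6 mg/ml, and of the 12 markers only Cd209a was under the filter on low counts. Macrophage markers summed to 905 to 3177 CPM and neutrophil markers to 1296 to 4873 CPM, with overlapping groups, whereas lymphocyte markers summed to 3.24 to 15.1 CPM. A replicate number stands for 1 date and 1 sequencing lane, given in the library names. In both groups replicates 1 and 2 held 380 to 2844 Xist counts and no Y-linked count, and replicate 3 held no Xist count and 1534 or 5847 Y-linked counts. By these counts replicates 1 and 2 were not from male mice, unlike what the methods give, and replicate 3 came from other mice. Replicate 3 thus differed from replicates 1 and 2 in sex, and each replicate had its own date and lane. In the library names, replicates 1 and 3 share the code that precedes the lane, and replicate 2 has another. Each density holds every number once.

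No gene passed an FDR of 0.1 between 2.6 and 1.7 mg/ml among the 13844 genes tested with edgeR's quasi-likelihood test, a background of 0%, and DESeq2 called 0 as well. Without the filter on low counts, which changed how edgeR estimated the spread, it called 219 genes (207 higher, 12 lower). Flcn, Hspa1b, Ptgs2, Slc38a2, Slc5a3, Hipk1, and Mdm2 were among these genes, and Dyrk3 was not. Col3a1 had the smallest adjusted p among them, although its difference rested on 1 library, as given below. Col1a2 and Col6a2, which were high in that same library, were called as well. With the filter the smallest adjusted p was 0.568. At an unadjusted p under 0.05 edgeR listed 1207 genes (8.72% of those tested), 940 higher at 2.6 mg/ml (6.79%) and 267 lower (1.93%), and DESeq2 listed 1448. Their adjusted p from edgeR ran from 0.568 to 0.5695, so that every gene given below is described by its values and is not a call in this fit. Levels were higher at 2.6 mg/ml in 3 of 3 replicates for 2951 genes (21.3%) and lower in 3 of 3 for 2652 (19.2%). The 3 libraries of each density did not overlap in 666 genes on the higher side (4.81%) and in 563 on the lower side (4.07%).

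The intervals show which differences this comparison could have missed. Across the genes tested, the 95% interval of the fitted difference reached 0.78 on the log2 scale to either side at the median gene, which is 1.72-fold. For 4976 genes (35.9%) the whole interval lay between a 2-fold decrease and a 2-fold increase. Among the 6400 genes with a mean of at least 16 CPM, 3748 were bounded in this way. The median log2 difference over all genes was 0.01, which the scaling of libraries by TMM sets near 0.

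The 3 replicate pairs differed in width. For the 6400 genes of at least 16 CPM, the log2 ratio of 2.6 over 1.7 mg/ml had an SD over genes of 0.28 in replicate 1, 0.31 in replicate 2, and 0.94 in replicate 3. More than 2-fold differences were seen in 14, 20, and 2079 of these genes. Across the same genes, which are not independent replicates, the ratios of replicates 1 and 3 correlated at r = 0.69, those of replicates 2 and 3 at r = 0.37, and those of replicates 1 and 2 at r = 0.30. The pairs thus shared a direction for many of these genes, at very unequal size. Over all 13844 genes tested the correlations were lower. They were 0.30 for replicates 1 and 3, 0.22 for replicates 2 and 3, and 0.11 for replicates 1 and 2. Without replicate 3, edgeR listed 110 genes at an unadjusted p under 0.05 in place of 1207, and without the replicate 3 library at 2.6 mg/ml alone it listed 206.

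The gene with the smallest p among those that were higher was Flcn (on chromosome 11 of GRCm38 from 59791408 to 59810016). Folliculin, its product, links lysosomal nutrient sensing to mTORC1. Flcn stood at 72.3, 80.9, and 30.0 CPM in replicates 1 to 3 at 1.7 mg/ml and at 124, 142, and 152 CPM at 2.6 mg/ml, so the groups did not overlap. The fitted difference was 2.68-fold (95% interval 1.63 to 4.43; edgeR, adjusted p = 0.568), and the single pairs gave log2 ratios of 0.78, 0.81, and 2.34. Without replicate 3 the log2 difference was 0.80.

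Hspa1b, the stress-inducible HSP70 chaperone, had the largest difference among well-expressed genes of this group. Its level was 35.5, 23.5, and 6.83 CPM at 1.7 mg/ml and 59.2, 62.0, and 75.4 CPM at 2.6 mg/ml, without overlap. The fit gave a 4.05-fold difference (interval 1.98 to 8.28; edgeR, adjusted p = 0.568), and a log2 difference of 1.15 remained without replicate 3. The neighbouring and nearly identical Hspa1a, at 6.36 to 15.5 CPM against 15.5 to 20.5 CPM, was 2.14-fold higher. How reads that match both copies were counted is not given in the sources used here, so the split between them is uncertain.

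The other genes of smallest p on the higher side have varied known roles. Ptprj, a receptor tyrosine phosphatase, was at 30.5 to 58.2 CPM at 1.7 mg/ml and at 63.0 to 162 CPM at 2.6 mg/ml, a 2.77-fold difference. Atp2a2, the calcium pump SERCA2, stood at 54.5 to 115 CPM against 132 to 186 CPM, a 2.09-fold difference. Setd1a, a histone H3K4 methyltransferase, was 2.41-fold higher, Lcor, a nuclear receptor corepressor, 3.19-fold, and the RING finger gene Rnf24 2.87-fold. The groups did not overlap in any of these 5 genes, but Snx30, a sorting nexin at 2.12-fold, overlapped. The predicted gene Gm48427 was at or under 0.08 CPM, which is below the floor of 3 counts per library, at 1.7 mg/ml, and at 0.80 to 1.35 CPM at 2.6 mg/ml.

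Col3a1 also ranked among the 10 smallest p on the higher side, and it rested on 1 library. Its counts were 6, 1, and 0 at 1.7 mg/ml, and 8, 512, and 4 at 2.6 mg/ml. The same library, replicate 2 at 2.6 mg/ml, held 560 counts of Col1a1, 460 of Col1a2, and 439 of Sparc, against 1 to 38 in the 5 other libraries. Collagen-producing fibroblasts express these genes. Pdgfrb went with them, at 7.52 CPM there and at most 1.23 CPM elsewhere. Other stromal markers did not: Lum was at 6.00 CPM against 8.07 to 16.9 CPM, and Dcn at 1.52 CPM against 0.794 to 3.47 CPM. Thy1 was at 68.5 CPM against 18.4 to 73.0 CPM. Which cells the transcripts came from was not tested. Stromal markers summed to 229 CPM in replicate 2 at 2.6 mg/ml and to 38.2 to 87.7 CPM elsewhere in the comparison. Of the 10 stromal markers 8 were tested, and Cxcl12 and Postn were under the filter. At an unadjusted p under 0.05, 3 were higher (Col3a1, Col1a2, Pdgfrb) and 0 lower, beside 6.79% and 1.93% of all genes. All 3 were highest in replicate 2 at 2.6 mg/ml. Without this library the log2 difference of Col3a1 was 1.72 in place of 5.30, and edgeR listed 1093 genes at an unadjusted p under 0.05 in place of 1207.

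On the lower side the smallest p belonged to Bloc1s5, a subunit of the BLOC-1 complex of lysosome-related organelles. It stood at 9.40, 8.80, and 16.7 CPM at 1.7 mg/ml and at 5.22, 4.63, and 4.95 CPM at 2.6 mg/ml. The groups did not overlap, and the fitted level at 2.6 mg/ml was 0.433 of that at 1.7 mg/ml (interval 0.287 to 0.654; edgeR, adjusted p = 0.568). Its 3 libraries at 2.6 mg/ml were the lowest of the series, since 3.5 and 4.4 mg/ml averaged 7.90 ± 1.55 and 8.73 ± 0.43 CPM (SD, n = 3) and the 2 suspension groups together averaged 13.4 ± 1.64 CPM (SD, n = 6).

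The next lower genes were Recql5, a DNA helicase (13.1 to 24.9 CPM at 1.7 mg/ml and 7.84 to 9.97 CPM at 2.6 mg/ml), and Gnpda1, a deaminase of glucosamine 6-phosphate (24.3 to 33.5 CPM and 11.8 to 19.6 CPM). Tradd, the adaptor of TNF receptor signalling, had 0.55 of its 1.7 mg/ml level, Tnfrsf18, which encodes the costimulatory receptor GITR, 0.567, and Orai3, a subunit of store-operated calcium channels, 0.59. The histone-fold gene Chrac1 and the ubiquitin ligase gene Neurl3 had 0.59 and 0.562, and Tmem37 and Zfand1 had 0.438 and 0.327. With Bloc1s5 these are the 10 lower genes of smallest p, and the groups overlapped in 0 of them. In replicate 3 the difference was the largest of the pairs for 8 of them, the exceptions being Tnfrsf18 and Zfand1, as the plot of the smallest-p genes shows.

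**Figure D1:**
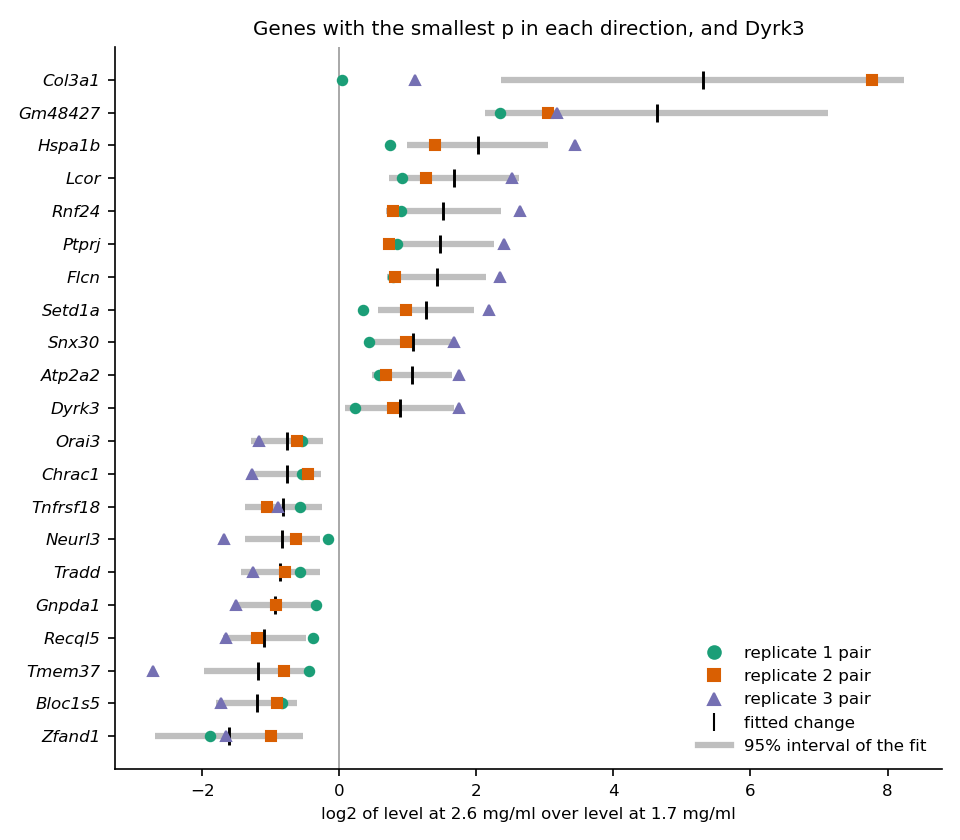
Log2 ratio of the level at 2.6 mg/ml over that at 1.7 mg/ml (x axis) for the 10 genes of smallest p in each direction and for Dyrk3 (y axis). Colored points are the replicate pairs, black ticks the fitted difference, and gray bars its 95% interval. The pair of replicate 3 lies farthest from 0 for most genes, and Col3a1 lies farthest in replicate 2, at 7.77.

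The genes with low p were not spread evenly over gene length. Those higher at 2.6 mg/ml had a median exon length of 7231 bases and a GC content of 46.6%, those lower 2812 bases and 53.4%, and all genes tested 4058 bases and 49.9%. Of the genes in the longest quintile, 481 were higher at an unadjusted p under 0.05 and 19 lower, and in the shortest quintile 60 were higher and 79 lower. From the shortest to the longest quintile the median log2 ratio went from -0.51 to 0.72 in replicate 3, from -0.18 to 0.17 in replicate 1, and from -0.03 to 0.09 in replicate 2. Relative to the mean of all 18 libraries, genes of the longest quintile stood 0.91 (log2) above those of the shortest quintile in replicate 3 at 2.6 mg/ml, which only replicate 2 of the suspension titled without CCL19 exceeded, at 1.08.

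**Figure D2:**
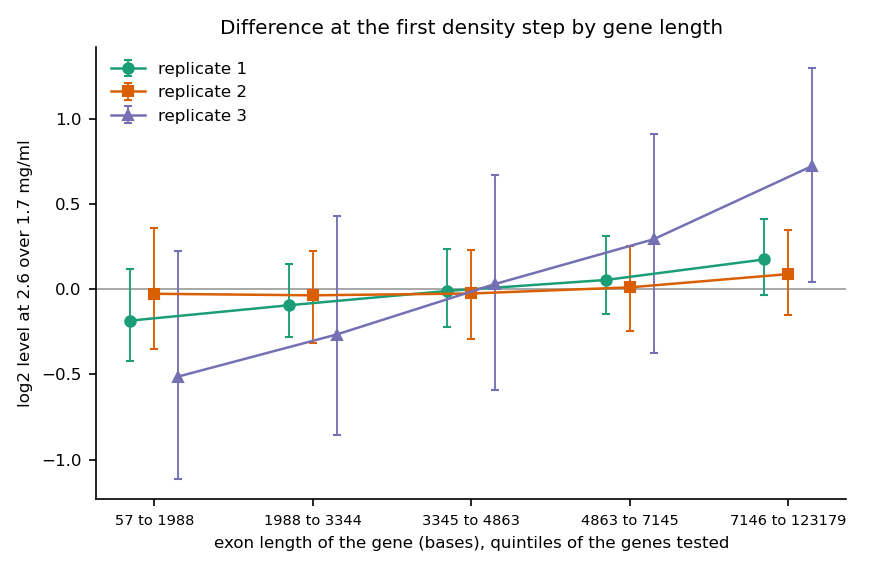
Log2 ratio of 2.6 over 1.7 mg/ml (y axis) by quintiles of exon length of the genes tested (x axis, bases). Points are medians over the genes of a quintile in each replicate pair, and bars span the 25th to the 75th percentile. The slope is steepest in replicate 3, from -0.51 to 0.72, and nearly flat in replicate 2.

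With an offset for GC content and exon length in each library, edgeR again called 0 genes, and the 1206 genes at an unadjusted p under 0.05 divided into 815 higher (5.89% of those tested) and 391 lower (2.82%), against 940 and 267 without it. Whether length or GC content accounts for any single difference was not tested. The medians of the gene lists below are therefore given with and without these offsets.

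Dyrk3 was at 5.47, 3.91, and 1.47 CPM in replicates 1 to 3 at 1.7 mg/ml and at 6.42, 6.80, and 5.17 CPM at 2.6 mg/ml. It was higher in 3 of 3 replicates, but the groups overlapped, since 2.6 mg/ml replicate 3 lay below 1.7 mg/ml replicate 1. The fitted difference was 0.88 on the log2 scale (SE 0.38), or 1.84-fold (interval 1.06 to 3.19; edgeR, adjusted p = 0.568), and 0.98 with the offsets. The exact two-sided permutation test over the 6 libraries gave p = 0.2, where 0.1 is the smallest p that 3 against 3 allow. That test leaves out the pairing by replicate number, which the fit uses. Its mean continued from 6.13 ± 0.85 CPM at 2.6 mg/ml to 6.14 ± 2.09 CPM at 3.5 mg/ml and 11.8 ± 2.81 CPM at 4.4 mg/ml (SD, n = 3 each), and was 2.06 ± 0.97 CPM over both suspension groups (SD, n = 6). The difference was largest in the pair of replicate 3, and without that replicate it was 0.49 on the log2 scale. Without the replicate 3 library at 1.7 mg/ml alone it was 0.57, and without the one at 2.6 mg/ml alone 0.74.

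Dyrk3 belongs to a family of related kinases that includes the Clk kinases of splicing factors and the Hipk kinases of transcription factors. Of 11 members tested, 0 passed the FDR, and 4 were higher at an unadjusted p under 0.05, beside 6.79% of all genes: Hipk1, Hipk2, Dyrk3, and Hipk3. Hipk1 was at 223, 162, and 64.4 CPM at 1.7 mg/ml and at 311, 266, and 275 CPM at 2.6 mg/ml, without overlap. Its difference was 2.23-fold (interval 1.38 to 3.57) and shrank to a log2 value of 0.77 from 1.15 with the offsets. Hipk2 was 2.12-fold higher with overlapping groups. The median log2 difference of the list was 0.78, against 0.01 for all genes, with 0.12, 0.30, and 1.38 in the single pairs and 0.36 with the offsets. Dyrk1b was the member that was lower, at a log2 difference of -0.44 (interval -1.14 to 0.26).

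**Figure D3:**
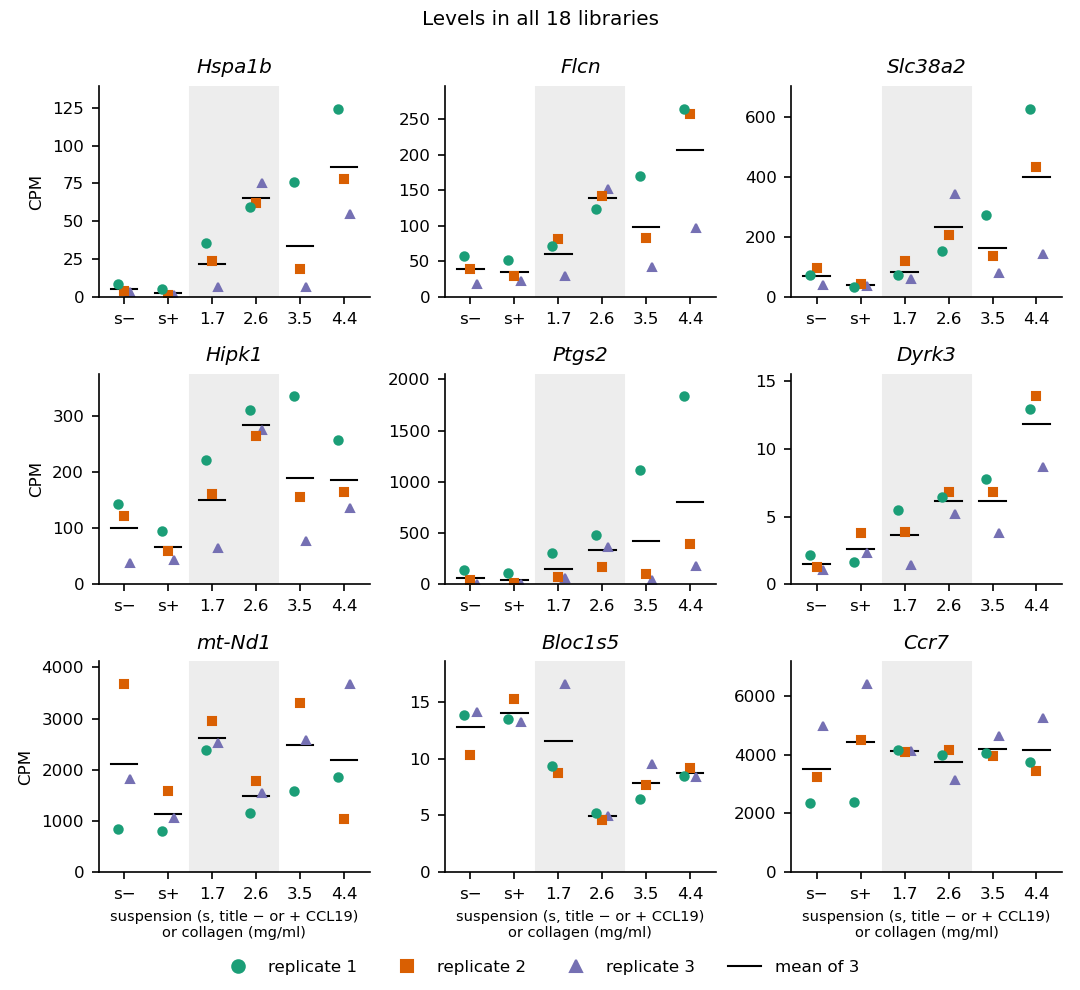
Level in CPM (y axis, from 0) of 9 genes in the 18 libraries, ordered by group (x axis: the suspension groups by title, then collagen in mg/ml). Symbols mark the replicates, lines the mean of 3, and shading the first density step. Flcn, Hspa1b, Slc38a2, Hipk1, mt-Nd1, and Bloc1s5 do not overlap between 1.7 and 2.6 mg/ml, whereas Ptgs2, Dyrk3, and Ccr7 do.

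Of 17 chaperones of the cytosolic heat shock response tested, 14 had a fitted difference above 0, beside 6984 of all 13844 genes. At an unadjusted p under 0.05, 4 were higher (Hspa1b, Dnajb4, Hspa1a, Hspa4l) and 0 lower, beside 6.79% and 1.93% of all genes, and the groups did not overlap in 6, all higher, beside 4.81% of all genes. Dnajb4, an HSP40 cochaperone, was at 17.9 to 23.7 CPM at 1.7 mg/ml and at 29.1 to 58.2 CPM at 2.6 mg/ml, a 1.91-fold difference. The abundant constitutive members lay near 0 on the log2 scale, Hspa8 at 0.08 (interval -0.43 to 0.59) and Hsp90ab1 at 0.29 (interval -0.18 to 0.76). The median of the list was 0.39, and 0.35 with the offsets. Among 18 chaperones of the endoplasmic reticulum, Hspa5 (BiP) was 1.404-fold higher at 406 to 672 CPM against 600 to 785 CPM, and 13 members had an interval within 2-fold on either side. Their median was 0.19, and 0.16 with the offsets.

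Early response transcription factors, which many cells induce soon after a stimulus, lay in both directions. At an unadjusted p under 0.05, 6 of 23 were higher (Mafk, Klf4, Egr2, Klf6, Egr1, Jun) and Klf2 was lower, beside 6.79% and 1.93% of all genes. With the offsets 8 were higher and 0 lower. Mafk was at 12.0 to 29.6 CPM at 1.7 mg/ml and at 28.3 to 38.9 CPM at 2.6 mg/ml, and Klf4 at 4.62 to 14.2 CPM and 8.89 to 21.7 CPM, with overlap in both. Without replicate 3 at 2.6 mg/ml the log2 difference of Klf4 was 0.105 in place of 1.37. Egr1, whose log2 difference was 1.39 (SE 0.58), had a difference of 3.41 at the step from 3.5 to 4.4 mg/ml, where its adjusted p in edgeR was 0.232. The median of the list was 0.44, and 0.55 with the offsets. The median was 0.0003 in replicate 1, 0.44 in replicate 2, and 0.82 in replicate 3.

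Of 27 genes of the integrated stress response and amino acid supply, 3 were higher at an unadjusted p under 0.05 and 0 lower, and so were 3 and 0 of 19 genes of the NRF2 antioxidant response, beside 6.79% and 1.93% of all genes. Slc7a11 counts in both lists. The list medians were -0.005 and 0.12, and 0.09 and 0.20 with the offsets. Slc38a2, which imports neutral amino acids, stood at 71.6, 120, and 58.6 CPM at 1.7 mg/ml and at 153, 207, and 342 CPM at 2.6 mg/ml. The groups did not overlap, and the difference was 3.14-fold (interval 1.595 to 6.18), or a log2 value of 0.91 without replicate 3. The cystine importer Slc7a11 (136 to 280 CPM against 315 to 362 CPM) was 1.75-fold higher, but at a log2 value of 0.21 with the offsets. Gclc, which starts glutathione synthesis, and Txnrd1, thioredoxin reductase, were 2.15-fold and 2.02-fold higher with overlapping groups. Without replicate 3 at 2.6 mg/ml the log2 difference of Txnrd1 was 0.36 in place of 1.01.

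A few single genes outside the lists were chosen after their values were seen, so they carry no count. Slc5a3, the myo-inositol transporter, was at 7.55, 12.0, and 6.41 CPM at 1.7 mg/ml and at 13.6, 24.5, and 67.0 CPM at 2.6 mg/ml, 4.71-fold higher without overlap (interval 1.67 to 13.3). Its log2 difference was 2.23, and 1.605 with the offsets. The single pairs gave 0.84, 1.02, and 3.36. The taurine transporter Slc6a6 (185 to 484 CPM against 490 to 594 CPM) was 1.67-fold higher, and Akr1b3, aldose reductase, 1.70-fold (interval 0.938 to 3.08), both without overlap. With the offsets their log2 differences were 0.56 and 0.54, in place of 0.74 and 0.77. Nfat5, the transcription factor of the tonicity response, was 2.62-fold higher with overlap, and its log2 difference was 0.69 with the offsets in place of 1.39.

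The p53 target Mdm2, a ubiquitin ligase that limits p53, was at 68.0 to 104 CPM at 1.7 mg/ml and at 151 to 271 CPM at 2.6 mg/ml. It was 2.43-fold higher, and the kinase gene Plk2 was 2.16-fold higher at 45.7 to 56.2 CPM against 57.2 to 185 CPM, both without overlap. Without replicate 3 at 2.6 mg/ml the log2 differences were 0.55 each, in place of 1.28 and 1.11. Of 20 p53 targets 4 were higher at an unadjusted p under 0.05 and 0 lower, beside 6.79% and 1.93% of all genes, with a median of 0.33 and of 0.41 with the offsets. Choline kinase alpha (Chka), the first enzyme of phosphatidylcholine synthesis by the Kennedy pathway, was at 76.2 to 99.2 CPM at 1.7 mg/ml and at 108 to 169 CPM at 2.6 mg/ml. Its difference was 1.598-fold and 0.38 (log2) with the offsets against 0.68 without, and the list of 13 genes went from a median of 0.31 to 0.05.

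Genes for gripping the matrix had a median exon length of 6014 bases, above the 4058 bases of all genes. Of 30 integrin and adhesion genes tested, 6 were higher at an unadjusted p under 0.05 (Itgav, Itgb8, Parva, Itga4, Lims1, Vcl) and 0 lower, beside 6.79% and 1.93% of all genes. With the offsets 4 were higher and 1 lower, beside 5.89% and 2.82%. Itgav, the alpha chain of several RGD-binding integrins, stood at 35.1 to 75.1 CPM at 1.7 mg/ml and at 88.5 to 140 CPM at 2.6 mg/ml, without overlap. It was 2.25-fold higher, a log2 value of 1.17 that became 0.69 with the offsets and 0.50 without replicate 3 at 2.6 mg/ml. In contrast, Itgb2, the beta chain of the leukocyte integrins, had a ratio of 0.998 (interval 0.692 to 1.44). The median of the adhesion list was 0.10, and 0.08 with the offsets.

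Contractility genes were longer still, at a median of 7614 bases, and their median log2 difference was 0.20, and 0.23 with the offsets. Ppp1r12b, a targeting subunit of myosin phosphatase, was at 29.6, 27.0, and 4.52 CPM at 1.7 mg/ml and at 28.7, 44.5, and 20.9 CPM at 2.6 mg/ml, with overlap. It was 1.98-fold higher (interval 1.13 to 3.49), a log2 value of 0.99 that became 0.59 with the offsets. The myosin II heavy chain Myh9 was at 538 to 1031 CPM and 709 to 1841 CPM, 1.58-fold higher (interval 0.986 to 2.54), a log2 value of 0.66 that became 0.41 with the offsets. The 20 channels and cPLA2 pathway genes had a median of 0.19, and of 0.08 with the offsets. Among them Piezo1, a stretch-gated cation channel, was 1.54-fold higher at 46.6 to 112 CPM against 64.9 to 133 CPM, and Trpm7 was higher by 1.045 on the log2 scale, and by 0.46 with the offsets. Ptgs2, the inducible cyclooxygenase downstream of cPLA2, was at 311, 73.0, and 65.6 CPM at 1.7 mg/ml and at 481, 168, and 363 CPM at 2.6 mg/ml. It was 3.59-fold higher with overlap (interval 1.45 to 8.88), and its log2 difference of 1.84 became 1.45 with the offsets and 0.41 without replicate 3 at 2.6 mg/ml. Centrosome genes, 26 tested, had a median of 0.20 and of 0.04 with the offsets. At an unadjusted p under 0.05, 2 of the 26 were higher (Ndel1 and Clasp1) and 0 lower, beside 6.79% and 1.93% of all genes. The log2 difference of Clasp1 was 0.12 with the offsets in place of 0.63, and that of Ndel1 0.55 in place of 0.46. Pcnt, the pericentrin scaffold, was at 1.26-fold (interval 0.78 to 2.03).

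For several genes that define a mature DC, the intervals bounded the difference. Ccr7 was at 4153, 4102, and 4119 CPM at 1.7 mg/ml and at 3996, 4167, and 3132 CPM at 2.6 mg/ml, a ratio of 0.924 (interval 0.601 to 1.42). The costimulatory gene Cd86 had a ratio of 0.912 (interval 0.60 to 1.39), the actin bundler Fscn1 0.939 (0.607 to 1.45), and the chemokine Ccl22 0.875 (0.572 to 1.34), so that a 2-fold difference lay outside each interval. Relb, the maturation gene of smallest p, was lower in 3 of 3 replicates without overlap, at a ratio of 0.69 (interval 0.457 to 1.04). Cd40 was lower in 3 of 3 with overlap, at 0.81 (0.487 to 1.34). For these 2 genes a 2-fold decrease lay inside the interval. Of the 18 costimulation and maturation genes, 10 had an interval within 2-fold on either side. The median of the 18 changed sign with the offsets, from -0.10 to 0.11, as did Ccr7 (-0.11 to 0.10) and Fscn1 (-0.09 to 0.12). No chemokine (17 tested), chemokine receptor (11), or cytokine (19) was at an unadjusted p under 0.05 in edgeR, beside 8.72% of all genes. With the offsets 1 receptor, Cxcr4, was higher at that threshold, beside 5.89% of all genes. Without the filter on low counts, edgeR called Cxcl2 (adjusted p = 0.062). The list medians were -0.13, 0.23, and 0.15, and 0.23, 0.02, and 0.16 with the offsets. The intervals were wide for genes such as Il6 (1.84-fold, interval 0.957 to 3.53) and Cxcl2 (2.08-fold, interval 0.859 to 5.02). For these a difference was not detectable at the spread of the fit with the filter.

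All 12 MHC class II presentation genes had a fitted difference below 0, beside 6860 of the 13844 genes tested. Their median was -0.30, and -0.17 with the offsets. Of the 12, 0 were at an unadjusted p under 0.05, beside 8.72% of all genes. With the offsets 1 was lower at that threshold, beside 2.82%. The pairs did not move alike: the list median was -0.27 in replicate 1, 0.21 in replicate 2, and -1.01 in replicate 3. Cd74, the invariant chain, was at 21060, 15790, and 29150 CPM at 1.7 mg/ml and at 15920, 21120, and 11310 CPM at 2.6 mg/ml, with overlap.

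Ribosomal protein genes and genes of oxidative phosphorylation, which are short, with median exon lengths of 1906 and 2101 bases, had medians below 0 as well. Of 72 cytosolic ribosomal protein genes 33 were lower in 3 of 3 replicates, beside 19.2% of all genes, and the list median was -0.31 and -0.10 with the offsets. Rpl5, at an unadjusted p under 0.05, had a fitted difference above 0 at only 0.308 to 3.83 CPM, and near-identical copies make its counts uncertain. Of 37 nuclear-encoded respiratory chain genes 16 were lower in 3 of 3 replicates, with medians of -0.31 and of -0.21 with the offsets.

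Transcripts from the mitochondrial genome were the list with the lowest median, -0.53, which stayed at -0.51 with the offsets. Here the replicate 3 pair had the smallest difference: the medians were -0.72, -0.60, and -0.27 in replicates 1 to 3. mt-Nd1, a complex I subunit, was at 2389, 2954, and 2523 CPM at 1.7 mg/ml and at 1158, 1770, and 1543 CPM at 2.6 mg/ml, a ratio of 0.555 (interval 0.312 to 0.988). mt-Nd4 was at 983 to 1051 CPM and 474 to 648 CPM, a ratio of 0.556 (interval 0.315 to 0.982). The groups did not overlap in either gene, nor in 1 further gene of the 7 tested, beside 4.07% of all genes on the lower side, whereas mt-Co1 had a log2 difference of 0.12 (interval -0.66 to 0.90). In suspension mt-Nd1 ranged from 802 to 3670 CPM, wider than the range of the 6 gels.

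**Figure D4:**
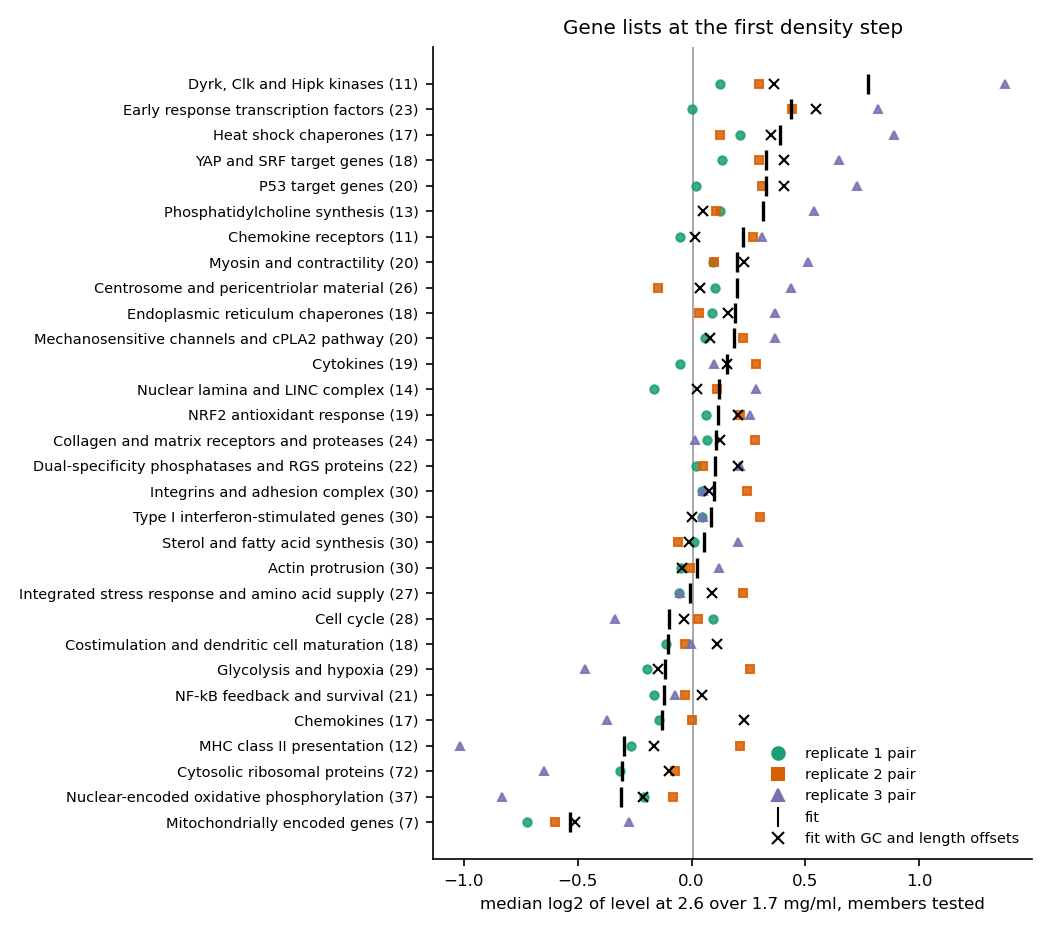
Median log2 ratio of 2.6 over 1.7 mg/ml (x axis) over the members tested of 30 gene lists (y axis, number tested in parentheses). Colored points are the replicate pairs, ticks the fit, crosses the fit with GC and length offsets, and the gray line the median of all genes, 0.01. The kinase list is highest at 0.78 and falls to 0.36 with the offsets, and mitochondrial transcripts are lowest at -0.53.

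Over the 30 lists together, 677 genes were tested and 52 were higher (7.68%) and 4 lower (0.591%) at an unadjusted p under 0.05, beside 6.79% and 1.93% of all genes. The share of higher genes in the lists was near that of all genes.

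The last step of the density series, from 3.5 to 4.4 mg/ml, is as large in mg/ml and shares no library with the first. edgeR called 0 genes there too, with 1448 (10.5%) at an unadjusted p under 0.05 and a smallest adjusted p of 0.232. The direct test of the difference between the 2 steps also called 0 genes, with 1319 (9.53%) at an unadjusted p under 0.05 and a smallest adjusted p of 0.519, for genes such as Asic1, Zkscan1, and Trpm4. Bloc1s5 differed by -1.21 at the first step and by 0.16 at the last (adjusted p of the difference in edgeR 0.519). Hipk1 differed by 1.15 and 0.15, with the same adjusted p. Dyrk3 differed by 0.88 and 0.97, and its 2 steps were apart by -0.09 (SE 0.53; edgeR, adjusted p = 0.946). The correlation of the fitted difference with exon length over genes, given as a description, was 0.35 (Spearman) at the first step and -0.18 at the last.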

How the data were processed

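RNA was measured in 18 libraries, 3 for each of 6 groups, as 50-base single-end reads of stranded mRNA libraries. The values that the authors deposited are raw counts, whole numbers for each Ensembl gene. The submitters' processing notes name STAR 2.7.0f and GRCm38, and the counting tool and how it treated strand and multi-mapped reads are not given in the sources used here. Sample titles gave the densities and replicate numbers.

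Counts of 29875 genes were analyzed with edgeR 4.0.16 in R 4.3.3. One fit held all 18 libraries, with group means and the replicate number as a block (filterByExpr, TMM, quasi-likelihood F-test, contrast of 2.6 minus 1.7 mg/ml), and 13844 genes were tested at an FDR of 0.1, the threshold in the study's methods, which name DESeq2. That all groups enter gives a shared spread (biological coefficient of variation 33.1%). Replicate numbers were treated as pairing the libraries because they share a date and a lane in the library names. Deviations from group means correlated at 0.78, 0.43, and 0.47 within the same number and at -0.65 to 0.39 between numbers. Deviations from a mean of 3 libraries sum to 0, so high values within numbers force low ones between numbers. These correlations are therefore a description only. Each standard error is the log2 difference over the root of its F value. CPM were taken with TMM factors, log2 CPM with a prior count of 2, and 3 counts correspond to 0.107 to 0.228 CPM, a floor for counting error only. Exon lengths, GC content, and positions came from GENCODE M21. Permutation tests were exact and two-sided.

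The genes named were Dyrk3, the 10 of smallest p in each direction (as no gene passed the FDR), up to 2 members of smallest p from each list, and some genes outside this rule, which were chosen after their values were seen: Ccr7, Cd86, Fscn1, Ccl22, Cd74, Itgb2, Myh9, Pcnt, Hspa1a, Hspa8, Hsp90ab1, Slc5a3, Slc6a6, Akr1b3, Nfat5, Col1a1, Col1a2, Sparc, and further list members at an unadjusted p under 0.05 or of known role. Some genes that the rule names are not reported here. The libraries compared and all 38 gene lists (30 of programs and 8 of cell type markers) were chosen with earlier results of these data known. Alternatives were no block, DESeq2 1.42.0, its size factors, no filter, 6 or 12 libraries only, GC and length offsets (loess, span 0.5), an FDR of 0.05, and leaving out each replicate or library. Promoters were to be shown only for lists with called members, and there were none.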

Additional observations from a re-analysis of the deposited data

How the results depend on the processing

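The count of 0 genes at an FDR of 0.1 held under every alternative run except the fit without a filter on low counts (0 for the first step, for its difference from the last step, and for list members). Without the filter, edgeR called 219 genes at the first step (207 higher, 12 lower), 214 for the difference from the last step (40 higher, 174 lower), and 19 list members (19 higher, 0 lower). Its prior degrees of freedom were then infinite in place of 8.13. Of the 219 genes 212 were also tested with the filter, where 200 had an unadjusted p under 0.05, and their median exon length was 7877 bases. The calls depend on that setting, and the cause was not tested.

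Without the replicate block, edgeR called 0 genes and listed 542 at an unadjusted p under 0.05 in place of 1207, and Dyrk3 differed by 0.76 (adjusted p = 0.9995). The block changed no call. DESeq2 with the block listed 1448, and its size factors in edgeR 1216. With the 6 libraries alone 1609 were listed, with the 12 collagen libraries 1119. Leaving out replicates or libraries gave 110 to 2729. The count moved by over 1.5 times without replicate 3 (110), without replicate 1 (562) or 3 (453) at 1.7 mg/ml, and without replicate 1 (2729) or 3 (206) at 2.6 mg/ml. Dyrk3 ranged from 0.49 (without replicate 3) to 1.24 (without replicate 1) in these fits and was 0.87 with DESeq2 (adjusted p = 0.408). Over all alternatives its adjusted p ran from 0.236 to 1.

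Of the values of 94 single genes, 10 changed sign, none past the threshold before. With GC and length offsets, Syne1 was at -0.0062 and Hbb-bt at 0.030. In the fits without a replicate or library, Col1a2 ran from -0.041 (without replicate 2) to 3.16, C1qb from -1.05 to 0.19 (without replicate 3), and Hmgcs1 from -0.0019 (without replicate 3) to 1.24. Without replicate 3 at 2.6 mg/ml alone, Cxcl2 was lowest at -0.36 (highest 1.65), Ms4a1 lowest at -1.39 (highest 2.85), Elane highest at 0.041 (lowest -1.70), and Hbb-bt highest at 0.30 (lowest -0.57). Depth limited mainly the rare transcripts: 3 counts were 0.107 to 0.228 CPM, and genes under the filter were not tested.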

Other observations

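Markers of granulocytes, cells that bone marrow cultures can hold, were measured as well. Eosinophil markers summed to 60.2, 70.3, and 49.6 CPM in replicates 1 to 3 at 1.7 mg/ml and to 39.7, 101, and 15.02 CPM at 2.6 mg/ml, lower in 2 of 3 replicates. Prg2, the major basic protein of eosinophil granules, was at 42.9, 50.0, and 33.9 CPM and at 29.1, 76.4, and 7.40 CPM. Neutrophil markers were lower in 2 of 3 replicates too and higher in replicate 2 (3973 and 4873 CPM), where Ngp, a granule protein gene, went with them at 1091 and 1537 CPM. Basophil and mast cell markers summed to 200 to 303 CPM and to 192 to 406 CPM. The order of the densities was thus not the same in the 3 replicates for eosinophil or neutrophil markers.

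In sum, macrophage markers followed the replicate more than the density. They came to 3177 and 2984 CPM in replicate 1 and to 905 to 1428 CPM in replicates 2 and 3. Not every member did so: Marco was at 492 and 394 CPM in replicate 1 and at 462 and 355 CPM in replicate 3. Mrc1 was lowest in replicate 1, at 1.31 and 0.36 CPM against 2.21 to 3.25 CPM. C1qb, a complement gene of macrophages, was at 139, 12.9, and 24.7 CPM at 1.7 mg/ml and at 122, 21.1, and 5.08 CPM at 2.6 mg/ml, so both replicate 1 libraries lay above all others. Type I interferon-stimulated genes summed to 11250 and 10800 CPM in replicate 1, and to 2613 to 4172 CPM in replicates 2 and 3. Their sum was lower at 2.6 mg/ml in replicates 1 and 3 and higher in replicate 2. Of the 30 tested, 2 were higher at an unadjusted p under 0.05 and 0 lower, beside 6.79% and 1.93% of all genes. Their median log2 difference was 0.08, and 0.003 with the offsets, and 13 had a fitted difference below 0. Mx1, an antiviral GTPase and 1 of these 2, was 1.68-fold higher at 2.6 mg/ml without overlap (64.6 to 104 CPM against 127 to 165 CPM, edgeR, adjusted p = 0.568).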
